A study of Homo sapiens with 38 samples.

Results

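The 9 genes described here are known targets of the microRNA miR-21, taken by name from a list: PDCD4, RECK, TPM1, TIMP3, RHOB, BTG2, SPRY1, SPRY2 and RASA1. They were 9 of the 58425 genes with a transcript in the files. The rule that names them uses no measured value. All 9 passed the filter on low counts in both fractions.

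RNA was sequenced from the nucleus and the cytoplasm of HCT116, a human colorectal cancer line, in wild-type cells and in 4 knockout lines derived from it. Made by CRISPR editing of HCT116, the knockouts were AGO1-/- and AGO2-/-, which lack a single protein, AGO1/2-/-, and AGO1/2/3-/-. Each of the 10 groups held 3 libraries, and the label of each library gives the passage of its culture. The question was how mRNA levels change when cells lack the Argonaute proteins that carry microRNAs.

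The wild-type libraries came from passages 27, 28 and 29. The passages were 6, 7 and 8 for the AGO1 knockout, 8, 9 and 10 for the AGO2 knockout, 9, 10 and 11 for the AGO1/2 knockout, and 11, 12 and 14 for the AGO1/2/3 knockout. Every line was grown in McCoy's medium with serum. Each genotype was 1 line, so genotype, clone and passage cannot be told apart, and every p-value measures the spread between cultures of 1 line. In such bulk samples fewer cells with a transcript and less of it per cell cannot be told apart either.

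A microRNA is carried by an Argonaute protein and guides it to mRNAs whose 3′ untranslated region (3′ UTR) pairs with the seed, the bases near the 5′ end of the microRNA. Binding usually lowers the amount of the mRNA or its translation. miR-21 is abundant in many tumours, colorectal cancer among them, and many of its targets restrain growth, invasion or Ras signalling. AGO1 to AGO4 overlap in this role, and AGO2 is the main one that can cut a fully paired target.

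The mature miR-21-5p is encoded on chromosome 17 and is shown because its seed defines the matches looked for in the 9 genes. The sequence is from RefSeq (GRCh38), 5′ to 3′, at chr17:59841273-59841294 on the plus strand, with bases 2 to 8 in capitals. miR-590-5p has the same seed.
miR-21-5p: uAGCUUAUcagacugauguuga

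Each of the 9 genes held at least 1 match to this seed in an annotated 3′ UTR (GENCODE 44, GRCh38). The letters searched on the transcript strand were ATAAGCTA, ATAAGCT and TAAGCTA, the last 2 of which lie within the first. Windows of 30 bases around the matches are printed with the match in capitals. In PDCD4, RECK, SPRY1, SPRY2 and TIMP3 the match had 8 bases, and TIMP3 held it at 2 places.
PDCD4, chr10:110898315-110898344, plus strand: aagtggaatattctaATAAGCTAccttttg
RECK, chr9:36124168-36124197, plus strand: gtttcacagtttgaaATAAGCTAtttgatg
SPRY1, chr4:123402951-123402980, plus strand: tgtttaattgcttaaATAAGCTAtgtatta
SPRY2, chr13:80336508-80336537, minus strand: tgacccatgtattgcATAAGCTAaagcaac
TIMP3, first match, chr22:32860394-32860423, plus strand: tacccacatggggacATAAGCTAatttttt
TIMP3, second match, chr22:32861747-32861776, plus strand: ggttttgagctttctATAAGCTAtagcttt

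RHOB held a 7-base match to bases 2 to 8, and BTG2, RASA1 and TPM1 held the 7-base match that ends with an A opposite the first base of the microRNA. TPM1 had this match at 2 places, each in the 3′ UTR of some of its transcripts only. In 3 transcripts the second match is the very end of the annotated 3′ UTR. The bases printed after it belong to 1 other transcript.
RHOB, chr2:20449367-20449396, plus strand: ttacataaaagttctATAAGCTgtgtatac
BTG2, chr1:203309462-203309491, plus strand: gtagtagtatgtttgTAAGCTAttctgaca
RASA1, chr5:87391047-87391076, plus strand: atgccagcaaccttgTAAGCTAtctgtgca
TPM1, first match, chr15:63064418-63064447, plus strand: gtccttttgggaaatTAAGCTAaactcaag
TPM1, second match, chr15:63066072-63066101, plus strand: caaataaacactgtgTAAGCTAtttctgtt

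Such a match is a description of the letters and was not tested as a binding site. Of 19044 genes with an annotated 3′ UTR, 13.3% held a match of any of the 3 kinds in their longest one, and 2.54% held the 8-base match. This measure is narrower than a match in any annotated 3′ UTR. By it TPM1 had no match, since its longest 3′ UTR of 3493 bases held none. The share depends on length, from 1.65% of 3′ UTRs under 500 bases to 35.7% of those of 3000 bases or more. Among 3′ UTRs within 1.2 times the length of SPRY2's, 5.17% held a match, against 27.6% for TIMP3 and 14.5% for PDCD4. The match lay early in the 3′ UTR of PDCD4, starting 242 bases after the stop codon of 1918, and near its end in RHOB, at 1326 of 1384, and BTG2, at 2039 of 2164.

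**Figure D1:**
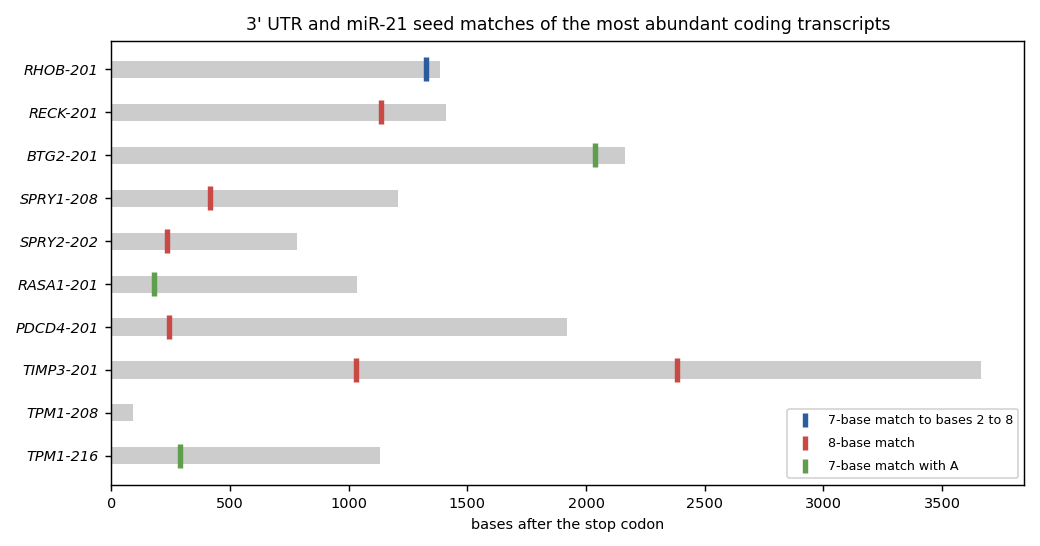
Places of the miR-21 seed matches in the 3′ UTRs of the 9 genes. Each bar is the 3′ UTR of 1 transcript, the x axis gives bases after the stop codon, and ticks mark the matches by kind. TIMP3 has 2 matches in 3664 bases, and TPM1-208, the main TPM1 transcript, has a 3′ UTR of 91 bases with no match.

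The libraries held 39476205 to 79731793 estimated reads in the cytoplasm and 20431557 to 54097984 in the nucleus. The wild-type libraries were the shallowest in each fraction, with at most 43281746 and 26536692. AGO1 mRNA had 141 to 159 CPM (counts scaled to a common library size) in wild-type cytoplasm and 13.2 to 17.3 in the 3 lines labelled as lacking AGO1, which is as labelled. AGO2 mRNA had 246 to 253 CPM in the AGO2 knockout against 362 to 421 in wild-type cytoplasm, but 469 to 534 in the AGO1/2 knockout and 394 to 447 in the AGO1/2/3 knockout. AGO3 mRNA had 83.3 to 87.4 CPM in the AGO1/2/3 knockout against 59.3 to 74.7 in wild type. An edited gene can keep its mRNA, so these levels do not check the AGO2 and AGO3 labels of the 2 lines with several edits. The study probed its knockout lines for AGO proteins by western blot and cites an earlier report of DNA sequencing of the edits.

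The mature miR-21 could not be measured in these libraries. Its gene MIR21 was listed at 0 in all 30 of them, and standard RNA-seq libraries recover few RNAs as short as a microRNA. VMP1, the gene whose 3′ end overlaps MIR21, had a log2 change of 0.29 in the cytoplasm of the AGO1/2 knockout (adjusted p = 0.000764689) and of 0.11 in that of the AGO1/2/3 knockout (adjusted p = 0.17607). In the nucleus VMP1 fell in the AGO1/2 knockout by 0.48 on the log2 scale (adjusted p = 0.0214486), though its libraries overlapped those of wild type, and it had −0.14 in the AGO1/2/3 knockout (adjusted p = 0.49818). The nuclear minus the cytoplasmic change was −0.84 (adjusted p = 0.000632096) in the first and −0.32 (adjusted p = 0.218808) in the second.

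Ranked by TPM, a transcript abundance that allows for length, RHOB was the highest of the 9 genes in wild-type cytoplasm, with 40.9 ± 8.74 TPM (SD, n = 3). PDCD4 followed with 21.3 ± 10.0, and its 3 libraries overlapped those of no other member. TPM1 (10.1 ± 0.0386), BTG2 (9.40 ± 0.666) and RASA1 (9.06 ± 0.232) lay next, and BTG2 and RASA1 overlapped each other. SPRY2, SPRY1, RECK and TIMP3 were at 2.04, 1.68, 1.16 and 0.795 TPM, in groups of 3 that did not overlap. The nucleus had RHOB and PDCD4 at the top, with 29.0 ± 7.42 and 22.5 ± 11.3 TPM, and TIMP3 at the bottom, with 0.522 ± 0.172.

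**Figure D2:**
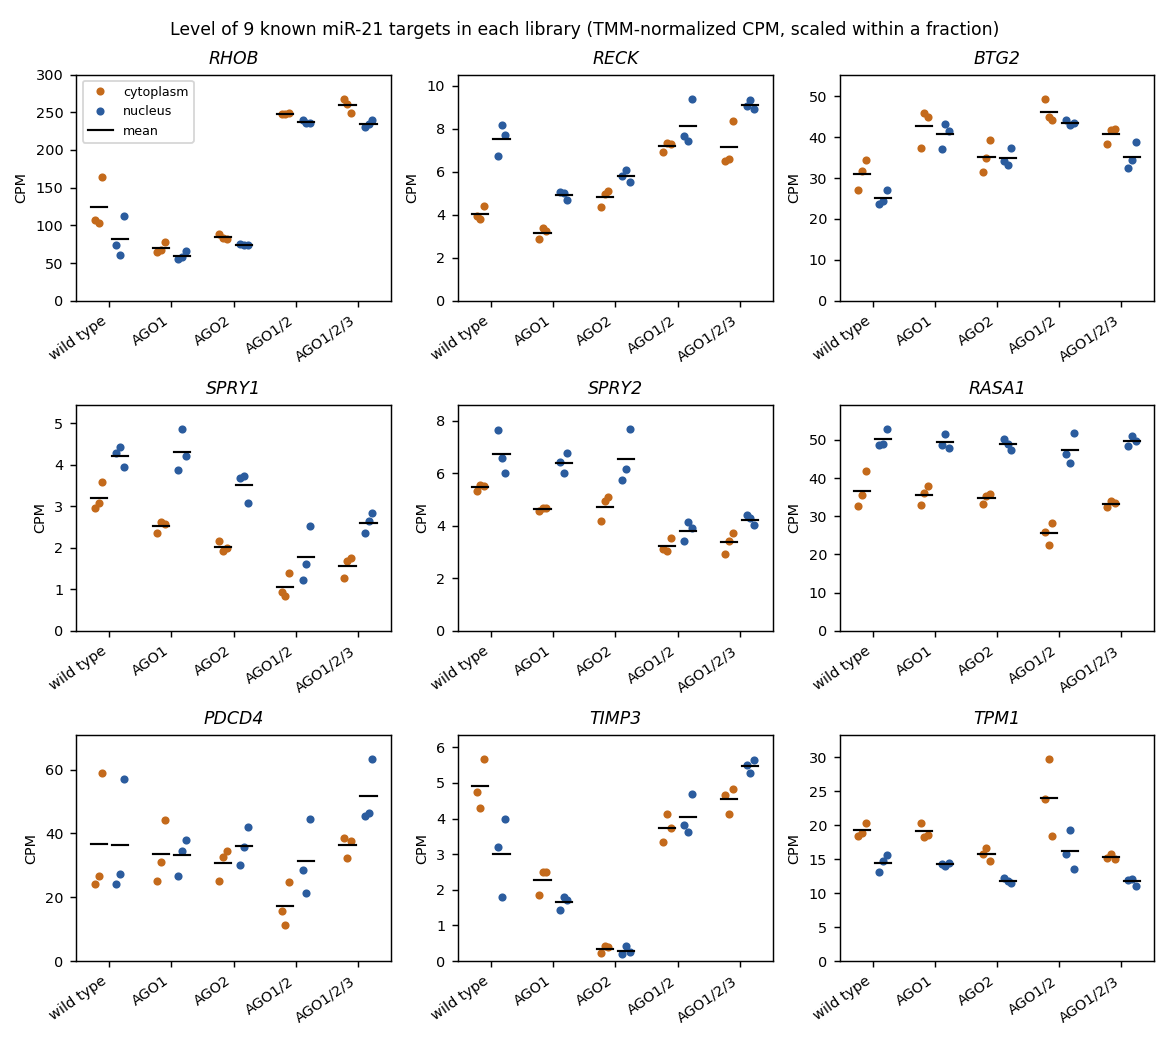
Level of each gene in each library, in CPM scaled within a fraction, so that heights are comparable between genotypes and not between fractions. Each point is 1 library, orange for cytoplasm and blue for nucleus, and the black line is the mean of 3. RHOB stands near 250 CPM in both lines that lack AGO1 and AGO2, against 104 to 164 in wild-type cytoplasm.

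In no knockout were all 9 targets called in 1 direction, though in the cytoplasm of the AGO2 knockout every call was a fall. BTG2 alone had a log2 change above 0 in the cytoplasm of the AGO1 knockout, and RECK and BTG2 did in that of the AGO2 knockout. In cytoplasm, 1 rose and 2 fell in the AGO1 knockout, where 4.28% of all 17605 genes tested were called higher and 8.13% lower. None rose and 3 fell in the AGO2 knockout, against 7.07% and 9.0% of all genes. The AGO1/2 knockout had 3 that rose and 4 that fell, against 23.9% and 25.4%, and the AGO1/2/3 knockout 3 and 2, against 18.6% and 20%. A gene was called at an adjusted p under 0.05 in edgeR's quasi-likelihood test, with Benjamini-Hochberg adjustment over all genes tested.

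In the nucleus 1 rose and 3 fell in the AGO1 knockout, where 14.3% of 18919 genes were called higher and 15.6% lower. The AGO2 knockout had the same counts, against 20.2% and 19.9% of all genes. There were 2 that rose and 2 that fell in the AGO1/2 knockout, against 32.9% and 34.7%, and 4 and 3 in the AGO1/2/3 knockout, against 29.1% and 29.5%. All 4 contrasts of a fraction share its 3 wild-type libraries and are not independent of each other.

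The median log2 change of the 9 genes in cytoplasm was −0.24 in the AGO1 knockout, −0.26 in the AGO2, −0.39 in the AGO1/2 and −0.11 in the AGO1/2/3 knockout, where the median of all genes lay between −0.014 and −0.0012. In the same order it was −0.079, −0.14, 0.12 and 0.28 in the nucleus, with all genes between −0.059 and −0.018. On a log2(TPM + 1) scale the medians of the 9 in the nuclear AGO1/2 and AGO1/2/3 knockouts turned to −0.053 and −0.12.

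That scale, on which values are not recentred between libraries, moved the median of all genes in cytoplasm to between −0.20, in the AGO1/2 knockout, and −0.084, in the AGO1 knockout. With limma on it the calls shifted towards falls: 2 members higher and 5 lower in the cytoplasm of the AGO1/2 knockout, of 1355 genes higher and 8778 lower, against 4207 and 4463 by edgeR. For the AGO1/2/3 knockout the same 2 and 5 members stood among 1427 and 6652 genes, against 3281 and 3527. The AGO1 knockout had 1 member higher and 6 lower, of 238 and 3005 genes, against 754 and 1431. In that of AGO2 there were 6 lower, of 305 and 4785, against 1244 and 1584.

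In the nucleus the same scale gave 1 member higher and 3 lower in the AGO1 knockout, as by edgeR, among 362 and 5777 genes in place of 2702 and 2949. The AGO2 knockout had 1 and 3 members as well, among 679 and 6311 genes in place of 3824 and 3772. The AGO1/2/3 knockout had 3 members higher and 3 lower, among 2704 and 7483 genes in place of 5504 and 5579.

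**Figure D3:**
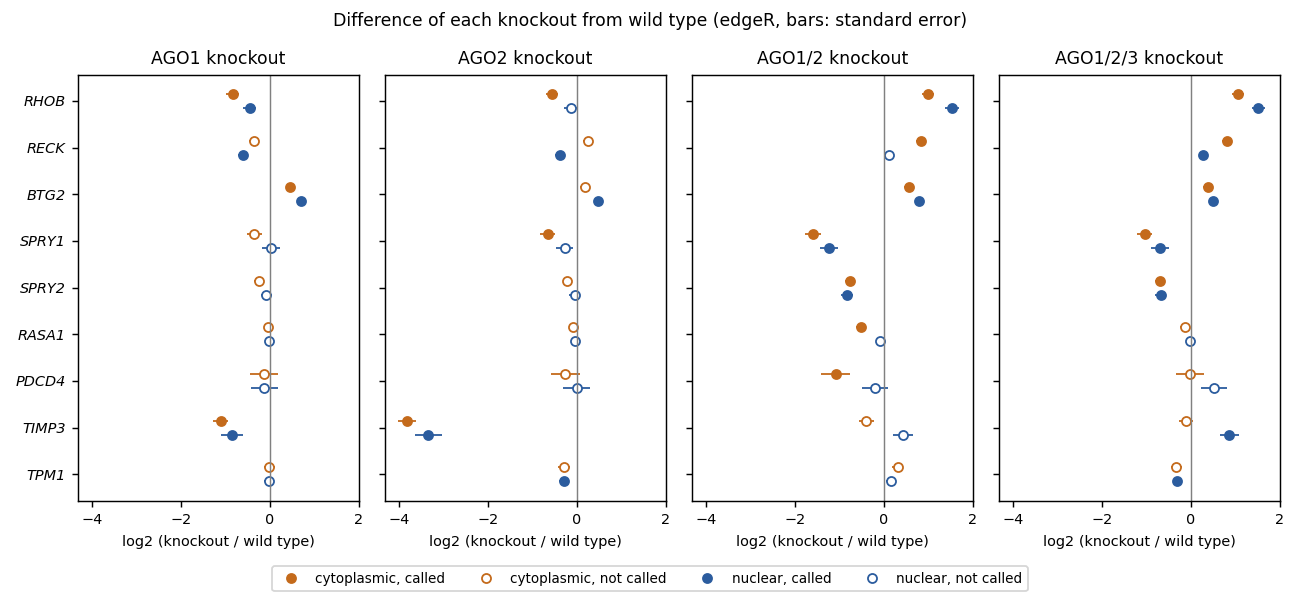
Log2 change of each gene in each knockout against wild type, in cytoplasm and in nucleus, with bars of 1 standard error from edgeR. Filled points passed the adjusted p of 0.05. RHOB and BTG2 lie above 0, and SPRY1 and SPRY2 below it, in both fractions of the AGO1/2 and AGO1/2/3 knockouts.

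RECK and TIMP3 restrain metalloproteinases, enzymes that digest the extracellular matrix. RECK (ENSG00000122707.12, chr9:36036913-36124455, plus strand) encodes a membrane-anchored inhibitor. Its cytoplasmic level was 3.92, 3.82 and 4.38 CPM in wild type, 6.91, 7.32 and 7.29 in the AGO1/2 knockout and 6.51, 6.59 and 8.34 in the AGO1/2/3 knockout. Every library of both knockouts exceeded every wild-type library, in contrasts where 51.0% and 46.5% of all genes tested were apart from wild type. RECK rose 1.78-fold in the AGO1/2 knockout (log2 change 0.83 ± 0.115 SE, adjusted p = 3.47752e-05) and 1.77-fold in the AGO1/2/3 knockout (0.82 ± 0.115, adjusted p = 5.60228e-05).

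The lines with a single edit differed from this. In the AGO1 knockout the cytoplasmic RECK values of 2.86, 3.38 and 3.23 CPM lay below those of wild type, with a log2 change of −0.36 that missed the threshold (adjusted p = 0.0616). The AGO2 knockout overlapped wild type, with 4.37, 4.98 and 5.09 CPM. So the level of RECK was highest in the lines lacking both proteins and lowest in the AGO1 knockout, and the first 2 lines in that order overlapped.

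Nuclear RECK gave other values. It was 6.72, 8.16 and 7.68 CPM in wild type and 5.04, 5.03 and 4.70 in the AGO1 knockout, a fall of 1.53-fold (log2 change −0.61, adjusted p = 0.000768518). In the AGO2 knockout, with 5.78, 6.08 and 5.53 CPM, RECK fell 1.30-fold (−0.37, adjusted p = 0.0113064), a call that was lost without wild-type passage 28. Here neither group overlapped wild type.

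In the nuclear AGO1/2 knockout RECK overlapped wild type, with 7.64, 7.41 and 9.39 CPM and a log2 change of 0.12 that turned to −0.053 on the log2(TPM + 1) scale. In the nuclear AGO1/2/3 knockout it had 9.06, 9.33 and 8.91 CPM, all above wild type, with a log2 change of 0.28 (adjusted p = 0.0302858) that was lost without AGO1/2/3 passage 11 or 12 or wild-type passage 27 and turned to −0.12 on the log2(TPM + 1) scale.

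TIMP3 (ENSG00000100234.12, chr22:32801705-32863041, plus strand) encodes a secreted inhibitor that binds the matrix. Its gene lies across from SYN3 on the other strand, with no shared exon bases. In cytoplasm it had 4.75, 4.29 and 5.67 CPM in wild type and 0.239, 0.414 and 0.386 in the AGO2 knockout. The AGO2 libraries held 18 to 30 reads of it and the wild-type libraries 191 to 247, so all 3 lay far below wild type. TIMP3 fell 14.2-fold there (log2 change −3.82 ± 0.201 SE, adjusted p = 2.10889e-08), which was the largest change of any of the 9 genes.

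The nuclear values of TIMP3 were 3.20, 1.80 and 4.0 CPM in wild type and 0.194, 0.428 and 0.259 in the AGO2 knockout, on 7 to 15 reads a library. The groups did not overlap, and TIMP3 fell 10.1-fold (log2 change −3.34 ± 0.307, adjusted p = 1.93e-06). Both folds rest on 1 edited line.

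TIMP3 was also lower in the cytoplasm of the AGO1 knockout, with 1.86, 2.51 and 2.49 CPM, a fall of 2.14-fold (log2 change −1.10, adjusted p = 0.000700737). The nuclear values of that line, 1.43, 1.81 and 1.73 CPM, touched those of wild type, and the 1.81-fold fall (−0.85, adjusted p = 0.0163089) was lost without AGO1 passage 6 or wild-type passage 29.

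In the lines lacking both AGO1 and AGO2 the fractions differed. Cytoplasmic TIMP3 had 3.34, 4.13 and 3.72 CPM in the AGO1/2 knockout, below wild type but short of the threshold (log2 change −0.39, adjusted p = 0.0592), which it passed without wild-type passage 28. It overlapped wild type in the AGO1/2/3 knockout, with 4.67, 4.13 and 4.84 CPM. Nuclear TIMP3 was 5.49, 5.28 and 5.64 CPM in the AGO1/2/3 knockout, above all wild-type values, a rise of 1.83-fold (log2 change 0.87, adjusted p = 0.00348104). It was 3.81, 3.63 and 4.69 CPM in the nuclear AGO1/2 knockout, where the log2 change of 0.43 (adjusted p = 0.0968) became 0.71 and passed without wild-type passage 29.

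RHOB, RASA1, SPRY1 and SPRY2 act on small GTPases. RHOB (ENSG00000143878.10, chr2:20447074-20449440, plus strand) encodes a GTPase of endosomes that is often low in tumours, and has 1 transcript. In cytoplasm it had 107, 104 and 164 CPM in wild type, 247, 248 and 249 in the AGO1/2 knockout and 268, 260 and 249 in the AGO1/2/3 knockout. Every library of both knockouts lay above every wild-type library. RHOB rose 1.99-fold (log2 change 0.99 ± 0.136 SE, adjusted p = 3.18367e-05) and 2.08-fold (1.05 ± 0.136, adjusted p = 2.83606e-05).

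In the nucleus RHOB had 73.7, 60.7 and 112 CPM in wild type against 240, 236 and 236 in the AGO1/2 knockout and 230, 234 and 239 in the AGO1/2/3 knockout. The groups were far apart, with rises of 2.89-fold (log2 change 1.53, adjusted p = 3.08922e-07) and 2.86-fold (1.52, adjusted p = 5.19957e-07). These were the largest rises among the 9 genes in either fraction.

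The direction was the opposite in the cytoplasm of the lines with a single edit. RHOB was 64.0, 67.2 and 78.2 CPM in the AGO1 knockout, a fall of 1.79-fold (log2 change −0.84, adjusted p = 0.00109955), and 88.4, 83.7 and 81.3 in the AGO2 knockout, a fall of 1.48-fold (−0.56, adjusted p = 0.0111561). Neither group overlapped wild type. In the nucleus both lines overlapped wild type. The AGO1 knockout, with 55.4, 58.6 and 65.6 CPM, was called lower by 1.37-fold (−0.45, adjusted p = 0.0305957) and lost the call without AGO1 passage 6 or 7 or wild-type passage 29, when the log2 change was −0.16. The AGO2 knockout was not called lower (−0.14).

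RASA1 (ENSG00000145715.15, chr5:87267883-87391931, plus strand) encodes a GTPase-activating protein that switches Ras off. Its cytoplasmic level was 32.6, 35.5 and 42.0 CPM in wild type and 26.0, 22.5 and 28.2 in the AGO1/2 knockout. These did not overlap, and RASA1 fell 1.44-fold (log2 change −0.52 ± 0.096 SE, adjusted p = 0.000415347). In the cytoplasm of the other 3 knockouts it overlapped wild type, between 32.4 and 37.8 CPM, with log2 changes of −0.14 to −0.044 that were not called. In the nucleus the knockout libraries spanned 43.9 to 51.8 CPM and the wild-type ones 48.5 to 52.8, and no line was called. Some of its exon bases are shared with CCNH on the other strand.

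SPRY1 and SPRY2 encode Sprouty proteins, which dampen receptor tyrosine kinase signalling to Ras and ERK. SPRY1 (ENSG00000164056.11, chr4:123396795-123403760, plus strand) had 2.97, 3.08 and 3.58 CPM in wild-type cytoplasm, 0.942, 0.853 and 1.39 in the AGO1/2 knockout and 1.26, 1.68 and 1.75 in the AGO1/2/3 knockout. All knockout libraries lay below wild type. SPRY1 fell 3.01-fold (log2 change −1.59 ± 0.179 SE, adjusted p = 5.00926e-06) and 2.05-fold (−1.04 ± 0.174, adjusted p = 0.000284327).

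SPRY1 also fell in the cytoplasm of the AGO2 knockout, at 2.16, 1.93 and 2.01 CPM, by 1.58-fold (log2 change −0.66, adjusted p = 0.0179458), a call lost without AGO2 passage 9 or 10 or wild-type passage 29. The AGO1 knockout, with 2.36, 2.62 and 2.57 CPM, lay below wild type without passing the threshold (−0.35, adjusted p = 0.198). The order of the cytoplasmic levels was wild type, AGO1, AGO2, AGO1/2/3 and AGO1/2 knockout, and only the last 2 overlapped as neighbours.

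Nuclear SPRY1 was 4.30, 4.43 and 3.95 CPM in wild type, 1.23, 1.61 and 2.52 in the AGO1/2 knockout and 2.36, 2.64 and 2.83 in the AGO1/2/3 knockout. Again no knockout library reached wild type. The falls were 2.35-fold (log2 change −1.23, adjusted p = 6.90979e-05) and 1.62-fold (−0.70, adjusted p = 0.00714926). The nuclear AGO1 knockout had a log2 change of 0.029, which was −0.071 on the log2(TPM + 1) scale, and the AGO2 knockout one of −0.27, and neither was called.

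SPRY2 (ENSG00000136158.12, chr13:80335976-80341126, minus strand) showed a pattern of calls like that of SPRY1 in the lines lacking both proteins. It had 5.33, 5.55 and 5.53 CPM in wild-type cytoplasm, 3.13, 3.03 and 3.55 in the AGO1/2 knockout and 2.93, 3.43 and 3.74 in the AGO1/2/3 knockout. These groups were apart from wild type. SPRY2 fell 1.69-fold (log2 change −0.76 ± 0.112 SE, adjusted p = 6.06375e-05) and 1.62-fold (−0.70 ± 0.111, adjusted p = 0.000178687).

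In the nucleus SPRY2 was 7.64, 6.57 and 6.02 CPM in wild type, 3.41, 4.13 and 3.92 in the AGO1/2 knockout and 4.4, 4.29 and 4.02 in the AGO1/2/3 knockout. The falls were 1.77-fold (log2 change −0.82, adjusted p = 3.87986e-05) and 1.59-fold (−0.67, adjusted p = 0.000339006), with no overlap. In the cytoplasm of the AGO1 and AGO2 knockouts SPRY2 lay below wild type in every library, with log2 changes of −0.24 and −0.21 that missed the threshold (adjusted p = 0.175 and 0.219).

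PDCD4 and BTG2 hold back growth by acting on translation and on mRNA. PDCD4 (ENSG00000150593.18, chr10:110871795-110900006, plus strand) binds and inhibits the RNA helicase eIF4A. Its level spread widely between cultures of 1 line. Wild-type cytoplasm had 24.1 and 26.8 CPM at passages 27 and 28 and 59.1 at passage 29, and wild-type nucleus had 24.2, 27.4 and 57.1. In 4 of the 5 lines the same passage held the highest PDCD4 level in both fractions. That was so in 5 lines for BTG2, 4 for TIMP3, 1 for SPRY2 and 0 for RECK, and in 3 for each of TPM1, RHOB, SPRY1 and RASA1. Some PDCD4 exon bases are shared with BBIP1 on the other strand.

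In the cytoplasm of the AGO1/2 knockout PDCD4 had 15.6, 11.4 and 24.7 CPM, a fall of 2.12-fold (log2 change −1.08 ± 0.328 SE, adjusted p = 0.0131995). The highest of these overlapped the lowest wild-type library. The call was lost without AGO1/2 passage 9 or 10 (−1.0 and −0.86), without wild-type passage 29 (−0.55, adjusted p = 0.102) and with only these 2 groups in the fit (adjusted p = 0.0584).

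The other knockouts overlapped wild type for PDCD4 and were not called in either fraction. The nuclear AGO1/2/3 knockout, with 45.5, 46.5 and 63.3 CPM, had a log2 change of 0.52 (adjusted p = 0.143), which became 1.03 (adjusted p = 0.00216) without wild-type passage 29.

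BTG2 (ENSG00000159388.6, chr1:203305491-203309602, plus strand) is an antiproliferative factor, induced by p53, that recruits the deadenylase that shortens poly(A) tails. It was the member called higher in the most contrasts. In cytoplasm it had 27.2, 31.7 and 34.4 CPM in wild type, 49.4, 44.9 and 44.1 in the AGO1/2 knockout and 38.4, 41.7 and 42.0 in the AGO1/2/3 knockout. Both knockouts lay above wild type, with rises of 1.48-fold (log2 change 0.57 ± 0.105 SE, adjusted p = 0.000410337) and 1.31-fold (0.39 ± 0.105, adjusted p = 0.00865458). On the log2(TPM + 1) scale these were 0.13 and 0.12 and neither passed.

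BTG2 also rose in the cytoplasm of the AGO1 knockout, with 37.2, 45.9 and 45.0 CPM, by 1.37-fold (log2 change 0.46, adjusted p = 0.0106656), a call lost without AGO1 passage 7 (adjusted p = 0.055). The AGO2 knockout overlapped wild type there, with 31.5, 34.8 and 39.3 CPM and a log2 change of 0.18 that turned to −0.039 on the log2(TPM + 1) scale.

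In the nucleus BTG2 was above wild type in every library of all 4 knockouts. Wild type had 23.6, 24.5 and 27.1 CPM, the AGO1 knockout 37.2, 43.1 and 41.6, the AGO2 knockout 34.1, 33.2 and 37.4, the AGO1/2 knockout 44.1, 42.9 and 43.5 and the AGO1/2/3 knockout 32.6, 34.4 and 38.8. The rises were 1.63-fold (log2 change 0.70, adjusted p = 3.24022e-05), 1.39-fold (0.48, adjusted p = 0.000311055), 1.74-fold (0.80, adjusted p = 4.74833e-07) and 1.41-fold (0.49, adjusted p = 8.8645e-05). The 4 share their wild-type libraries.

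TPM1 (ENSG00000140416.25, chr15:63042620-63071915, plus strand) encodes tropomyosin, which lies along actin filaments. In cytoplasm it had 18.5, 18.9 and 20.4 CPM in wild type, 23.9, 29.7 and 18.4 in the AGO1/2 knockout and 15.3, 15.8 and 15.0 in the AGO1/2/3 knockout. The AGO1/2 values straddled wild type, and the log2 change of 0.32 (adjusted p = 0.0501) rose to 0.47 and passed without AGO1/2 passage 11 and turned to −0.11 on the log2(TPM + 1) scale. The AGO1/2/3 values all lay below wild type, with a log2 change of −0.33 (adjusted p = 0.0538). Those of the AGO2 knockout, 15.8, 16.7 and 14.8 CPM, also lay below wild type and were not called (−0.29, adjusted p = 0.141).

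Nuclear TPM1 was 13.1, 14.8 and 15.6 CPM in wild type, 12.3, 11.8 and 11.5 in the AGO2 knockout and 11.9, 12.2 and 11.1 in the AGO1/2/3 knockout. Both lay below wild type, with falls of 1.22-fold (log2 change −0.29, adjusted p = 0.046309) and 1.23-fold (−0.30, adjusted p = 0.0250051). The first was lost without any of 5 libraries left out in turn, and the second without AGO1/2/3 passage 11 or 14 or wild-type passage 28 or 29. Some TPM1 exon bases are shared with TPM1-AS on the other strand.

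Grouped by kind of match, the 5 genes with an 8-base match did not share a direction. In the cytoplasm of the AGO1/2 knockout 1 of them rose (RECK) and 3 fell (SPRY1, SPRY2 and PDCD4), with a median log2 change of −0.76. For the AGO1/2/3 knockout 1 rose and 2 fell, with a median of −0.11. RHOB, with its 7-base match to bases 2 to 8, rose in both.

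All genes with an 8-base match to miR-21 in the longest 3′ UTR give the background to this. Of 381 such genes tested in cytoplasm, 24.4% were called higher and 27.0% lower in the AGO1/2/3 knockout, with a median log2 change of −0.052, against 21.6% and 22.9% and −0.014 for 11465 genes with no match. The AGO1/2 knockout had 27.3% higher and 35.2% lower, against 27.1% and 28.8%. The AGO2 knockout had 4.99% and 19.7%, against 8.51% and 10.1%. Genes with the 8-base match had longer 3′ UTRs, with a median of 3356 bases against 1191. Among 3′ UTRs of 1500 bases or more the medians still differed, at 3766.5 against 2664 bases. There the AGO2 shares were 5.42% and 20.2% against 7.58% and 13.2%. Those of the AGO1/2 knockout were 27.4% and 35.8% against 29.1% and 29.9%, and those of the AGO1/2/3 knockout 25.3% and 26.5% against 22.8% and 25.0%.

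Of 20 other genes listed as miR-21 targets, 8 rose and 6 fell in the cytoplasm of the AGO1/2/3 knockout, where 18.6% of all genes rose and 20% fell. Their median log2 change was 0.12, against −0.014 for all genes. The largest changes were rises of PPARA (1.01) and SMAD7 (0.85), the inhibitory Smad, and falls of SATB1 (−3.25), a chromatin organiser, and JAG1 (−1.91), a Notch ligand. Both directions held 7 of them in the AGO1/2 knockout, against 23.9% and 25.4% of all genes. In the AGO1 and AGO2 knockouts 0 and 1 rose while 7 and 5 fell. Of all genes 4.28% and 7.07% rose there and 8.13% and 9.0% fell.

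Partners and relatives of the 9 genes were counted from lists in the same way, and each count is to be read against the 18.6% of all genes that rose and the 20% that fell in the cytoplasm of the AGO1/2/3 knockout. Of 14 regulators and outputs of Ras and ERK signalling, 3 rose and 2 fell there, with a median of 0.14, among them rises of RASA2 (log2 change 1.02) and FOSL1 (0.94) and falls of SPRY3 (−0.55) and ETV4 (−0.48). Of 10 immediate early genes, which report recent signalling, 1 rose (KLF6, 0.47) and 4 fell, most of all EGR1 (−1.36) and JUNB (−1.17), with a median of −0.32. SPRY1 and SPRY2 fell in the same libraries.

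Of 7 metalloproteinases and inhibitors tested there, 1 rose (TIMP2, log2 change 1.31) and none fell, with a median of 0.12, where all genes had −0.014 with 18.6% rising and 20% falling. Of 9 paralogs of the members 5 rose and none fell, led by TPM4 (0.69) and RHOC (0.58), with a median of 0.36. Of 5 partners of PDCD4 in translation and turnover, BTRC rose (0.40) and EIF4G1 fell (−0.48), with a median of 0.037. Of 8 p53 targets, the class BTG2 belongs to, 2 rose (MDM2, 0.25, and SESN1, 0.24) and 1 fell (RRM2B, −0.36), with a median of 0.25. In the cytoplasm of the AGO1 knockout 5 of these 8 rose and 0 fell, with a median of 0.53, against 4.28% and 8.13% of all genes. The AGO2 knockout had 1 and 0, against 7.07% and 9.0%, and the AGO1/2 knockout 3 and 2, against 23.9% and 25.4%.

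In wild-type cells 4 of the 9 members were called lower in nuclear than in cytoplasmic RNA by edgeR. BTG2 had a log2 nuclear to cytoplasmic difference of −0.75 (adjusted p = 8.49428e-08), RHOB of −1.05 (3.37851e-07), TIMP3 of −1.15 (1.28205e-05) and TPM1 of −0.85 (6.72589e-07). RECK alone was called higher in the nucleus, by 0.46 (adjusted p = 0.000611747). In all, 1 member was called higher and 4 lower, against 39.6% and 37.3% of 20104 genes.

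These differences depend on how the fractions are scaled to each other. On the log2(TPM + 1) scale the median of all genes was 0.29 rather than 0.037, 4 members were called higher and 3 lower, and TPM1 (−0.16) was not called. There 11516 genes were called higher and 3793 lower, against 7957 and 7490 by edgeR. PDCD4 had −0.46 by edgeR (adjusted p = 0.204) and 0.059 on that scale. With the passage as replicate block, PDCD4 was −0.44 and passed (adjusted p = 7.81659e-05).

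**Figure D4:**
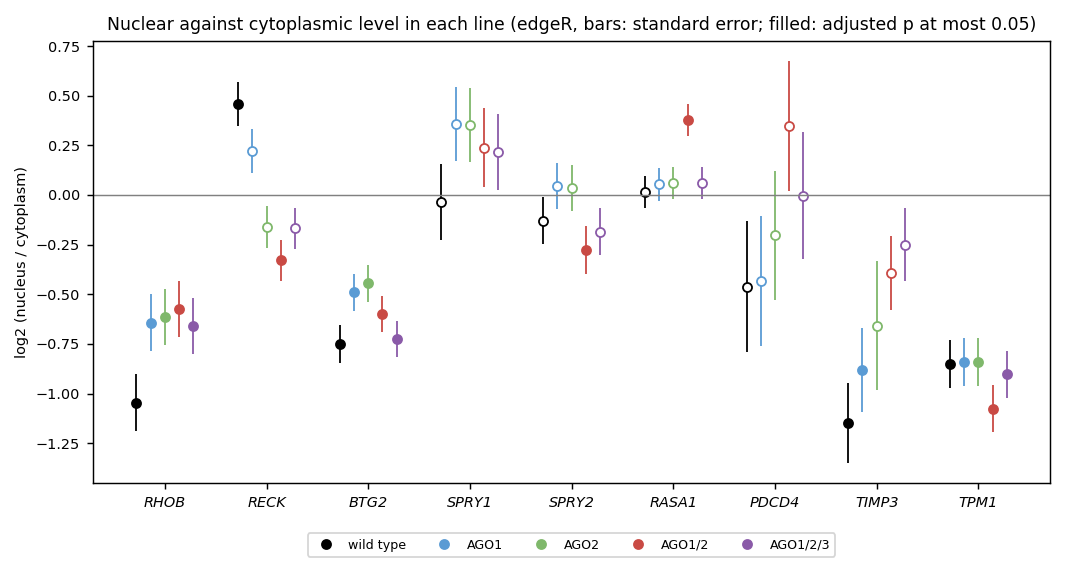
Log2 difference between nucleus and cytoplasm for each gene in each line, with bars of 1 standard error from edgeR. Filled points passed the adjusted p of 0.05. TPM1, RHOB and BTG2 lie below 0 in all 5 lines on this scaling, and RECK lies above 0 in wild type at 0.46 and below 0 in the AGO1/2 knockout at −0.33.

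TPM1, RHOB and BTG2 were called lower in the nucleus than in the cytoplasm in all 5 lines by edgeR. Their log2 differences were −1.08 to −0.84 for TPM1, −1.05 to −0.58 for RHOB and −0.75 to −0.45 for BTG2. On the log2(TPM + 1) scale the AGO1/2 values turned to 0.012, 0.44 and 0.39, the AGO2 value of BTG2 to 0.057 and the AGO1/2/3 value of RHOB to 0.0032. There 8 members were called higher and none lower in the AGO1/2 knockout, with 14310 genes higher and 974 lower, against 1 and 5 members and 7428 and 6359 genes by edgeR.

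The counts of members called higher and lower were 0 and 4 in the AGO1 knockout, against 40.0% and 34.5% of all genes, and 0 and 3 in the AGO2 knockout, against 39.8% and 33.6%. They were 1 and 5 in the AGO1/2 knockout, against 36.9% and 31.6%, and 0 and 3 in the AGO1/2/3 knockout, against 36.1% and 34.1%. On the log2(TPM + 1) scale the members were 4 and 1 in the AGO1 knockout, among 10718 genes higher and 3500 lower in place of 8036 and 6938. They were 3 and 0 in the AGO2 knockout, among 11194 and 2924 in place of 8005 and 6757, and 4 and 0 in the AGO1/2/3 knockout, among 11719 and 2116 in place of 7259 and 6859. RASA1 was the member higher in the nucleus of the AGO1/2 knockout, at 0.38.

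Each line had a nuclear and a cytoplasmic library of every passage, and with the passage as replicate block more members passed. PDCD4 passed at −0.41 in the AGO1 knockout (adjusted p = 0.000116768), −0.20 in the AGO2 (adjusted p = 0.0226446) and 0.36 in the AGO1/2 knockout (adjusted p = 0.000610836). SPRY1 passed at 0.35 in the AGO1 and AGO2 knockouts (adjusted p = 0.0140389 and 0.0166347), and TIMP3 at −0.66 in the AGO2 and −0.40 in the AGO1/2 knockout (adjusted p = 0.0361394 and 0.00806225). For the AGO2 knockout the block gave 1 member higher and 5 lower, in place of 0 and 3. The shares of all genes given above for the lines are from the fit without a block.

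The marker RNAs of the fractions moved with these groups. MALAT1, NEAT1 and KCNQ1OT1, all nuclear RNAs, had nuclear to cytoplasmic log2 differences of 3.83, 3.89 and 5.12 in wild type, 2.12, 2.62 and 3.96 in the AGO1/2 knockout and 2.48, 2.90 and 4.23 in the AGO1/2/3 knockout. In the nuclear libraries all 3 fell in both knockouts, MALAT1 by 1.18 and 0.95 on the log2 scale. All 4 mRNAs listed as cytoplasmic rose there, GAPDH by 1.11 and 0.91. Between the fractions, however, 1 of these 4 was called higher in the nucleus and 3 lower, in wild type and in every knockout. The part of these marker RNAs in the nuclear changes of the members was not tested.

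The change from wild type differed between nucleus and cytoplasm for RECK, TIMP3 and RASA1 in the fit without a block, and for RHOB, PDCD4 and TPM1 as well with the passage as replicate block. For the AGO1/2 knockout the nuclear change minus the cytoplasmic one was −0.79 for RECK (adjusted p = 0.000204624), 0.75 for TIMP3 (adjusted p = 0.0329974) and 0.36 for RASA1 (adjusted p = 0.0153593), or 2 members higher and 1 lower against 19.6% and 17.0% of all genes. For the AGO1/2/3 knockout it was −0.63 for RECK (adjusted p = 0.00370468) and 0.90 for TIMP3 (adjusted p = 0.0181818), or 1 higher and 1 lower against 11.7% and 11.1%. These shares of all genes are from the fit without a block. With the replicate block 4 members were higher and 2 lower in the AGO1/2 knockout, with the addition of PDCD4 (0.80, adjusted p = 1.69629e-05), RHOB (0.48, adjusted p = 1.7412e-05) and TPM1 (−0.22, adjusted p = 0.0240431). The block gave 3 higher and 1 lower in the AGO1/2/3 knockout, with the addition of PDCD4 (0.43, adjusted p = 0.00562739) and RHOB (0.39, adjusted p = 0.000255064). Over all genes the block called 3959 higher and 3052 lower there, in place of 2345 and 2223. For MALAT1, the nuclear marker, the nuclear change minus the cytoplasmic one was −1.71 and −1.35 in the AGO1/2 and AGO1/2/3 knockouts.

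The split of these calls over all genes moved with scaling and filtering. For the AGO1/2 knockout 3932 genes were higher and 3412 lower, against 3025 and 4108 with RLE size factors, 7316 and 3701 on the log2(TPM + 1) scale and 4751 and 2379 with no filter on low counts. TIMP3 (0.66) and RASA1 (0.27) kept their direction with RLE size factors without passing. The AGO1/2/3 knockout had 2345 genes higher and 2223 lower, against 3716 and 1207 with no filter, when RECK (−0.48, adjusted p = 0.0643) did not pass.

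RECK passed in both knockouts without each library in turn. TIMP3 in the AGO1/2 knockout did not pass without cytoplasmic AGO1/2 passage 9, cytoplasmic wild-type passage 29, nuclear AGO1/2 passage 11 or nuclear wild-type passage 28, and in the AGO1/2/3 knockout without nuclear wild-type passage 28 (0.64, adjusted p = 0.0705). RASA1 did not pass without cytoplasmic AGO1/2 passage 10, cytoplasmic wild-type passage 29 or nuclear AGO1/2 passage 11.

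Among transcripts with an annotated stop codon and complete 3′ UTR, TPM1 is the member whose transcripts differ in whether they hold the match. Other transcripts were not sorted, among them RECK-203, with 32.1% to 59.7% of RECK TPM by group mean. In cytoplasm RECK-201, which holds the RECK match, had 0.419 TPM in wild type, 0.559 in the AGO1/2 and 0.664 in the AGO1/2/3 knockout. RECK-203 had 0.417, 0.657 and 0.640, so the RECK rises are not those of the transcript with the match alone. TPM1-208, whose 3′ UTR has none, made up 47.1% to 92.3% of TPM1 TPM by group mean, and TPM1-216, which holds the first match, 0.367% to 12.7%. The share of TPM from TPM1 transcripts with a match was taken among those with an annotated stop codon and complete 3′ UTR. It was 0.699% to 1.57% by group mean in cytoplasm and 6.55% to 16.2% in the nucleus. Nearly all of the nuclear TPM with a match came from TPM1-216, with 0.962 of 0.990 in wild type and 0.533 of 0.547 in the AGO1/2 knockout. TPM1-216 is annotated with 1232 bases, of which 1132 are 3′ UTR, so the nuclear share follows 1 short transcript.

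In the nucleus this share was 11.1%, 15.3% and 19.0% in wild type, 5.56%, 5.90% and 8.2% in the AGO1/2 knockout and 7.46%, 9.35% and 10.5% in the AGO1/2/3 knockout. Neither knockout overlapped wild type. The log2 ratio of TPM with a match to TPM without fell by 1.23 in the AGO1/2 knockout (SE 0.220, adjusted p = 0.000671446 by limma over 1508 genes with both kinds of transcript, 40.4% of them called). An exact two-sided permutation test of the shares gave p = 0.1, the smallest it can give with 3 against 3.

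In the AGO1/2/3 knockout the ratio fell by 0.67 (adjusted p = 0.0324642, with 33.9% of genes called, exact permutation p = 0.1). That call was lost with a pseudocount of 1 TPM (−0.21) and without AGO1/2/3 passage 12 or 14 or wild-type passage 27 or 29. TPM with a match was 0.990 in wild type and 0.547 in the AGO1/2 knockout by group mean, and TPM without one 5.55 and 8.01. In the AGO1 and AGO2 knockouts the nuclear share was 16.2% ± 2.64 and 15.1% ± 1.51 (SD, n = 3), against 15.1% ± 3.94 in wild type, and neither was called, where 5.44% and 15.9% of the 1508 genes were. In cytoplasm TPM1 was called in no knockout. Of 1421 genes 0.844% were called there in the AGO1, 3.03% in the AGO2, 13.9% in the AGO1/2 and 6.47% in the AGO1/2/3 knockout.

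**Figure D5:**
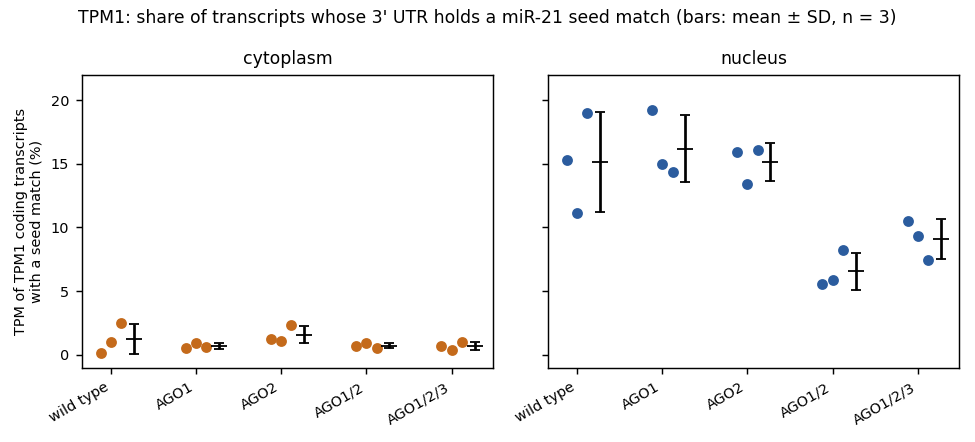
Percent of the TPM of TPM1 transcripts with an annotated stop codon and complete 3′ UTR that comes from those with a miR-21 seed match, by line and fraction. Each point is 1 library, and the lines give the mean and SD of 3. In the nucleus the AGO1/2 and AGO1/2/3 knockouts lie between 5.56% and 10.5% and wild type between 11.1% and 19.0%. Nearly all nuclear TPM with a match is that of TPM1-216.

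Across the 30 libraries, after taking out the mean of each fraction, the gene whose log2 CPM ran closest to each member among 16723 genes is given here as a description, since the libraries share genotype and depth. RHOB ran with L1CAM (Pearson r = 0.987), TIMP3 with PXDN (0.968) and RASA1 with LTA4H (0.955). RECK ran with PCBP3 (0.948), SPRY1 with SNTB1 (0.945), SPRY2 with RERE (0.945) and BTG2 with the ribosomal protein gene RPL27A (0.914). PDCD4 ran with KIF13B (0.903) and TPM1 with MAMLD1 (0.837).

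Markers of the line moved as well. Of the 5 epithelial markers listed, 4 were tested in cytoplasm and 2 fell in each of the lines lacking both AGO1 and AGO2: CDH1 by 3.08 and 2.40 and EPCAM by 1.22 and 1.18 on the log2 scale. The keratin KRT8 rose in the AGO1/2/3 knockout (log2 change 0.40) and had 0.051 in the AGO1/2 knockout, and KRT18 had 0.13 and 0.019. In the nucleus of both lines CDH1 and EPCAM fell and both keratins rose, KRT8 by 1.34 in the AGO1/2 and 1.22 in the AGO1/2/3 knockout. PTPRC, of blood cells, had 0 to 1 reads and PECAM1, of endothelium, 0 to 8 reads a library. Of the other 2 markers of other cell types, DES, of muscle, rose by 1.82 and 1.98 in cytoplasm and by 2.45 and 2.40 in the nucleus of the AGO1/2 and AGO1/2/3 knockouts. COL1A1, of fibroblasts, had −0.29 and 0.18 in cytoplasm, neither called, and −0.21 and −0.26 in the nucleus, where the second was called lower. Their part in the members' changes was not tested.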

How the data were processed

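The 30 RNA-seq libraries were used, and the 8 eCLIP samples were not analysed here. Per the labels, RNA was harvested with Trizol and strand-specific libraries were made with an Illumina whole-transcriptome kit. The submitters' processing notes name STAR 2.5.3a, Salmon 0.11.0 and the build hg38, while the study's methods name other versions of both tools. The deposited files give for each transcript an estimated count of reads, not normalized between libraries, a TPM value, which the authors' software scaled to a fixed total per library, and an effective length (other). Whether quantification used strand is not given in the sources used here.

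Transcripts were matched to GENCODE 44 by identifier (195887 of 200401, 97.7%). Unmatched ones held 2.23% to 4.01% of reads and were left out. Estimated counts were summed per gene and rounded. edgeR 4.0.16 in R 4.3.3 was fitted with TMM factors and filterByExpr at a minimum count of 10. The 15 libraries of a fraction entered 1 fit without a block, each knockout against wild type, and the contrasts between fractions used all 30. Calls had a Benjamini-Hochberg adjusted p under 0.05 over all genes tested. CPM values use the TMM factors of a fraction. The share of TPM1 transcripts with a match was tested with limma 3.58.1 on the log2 ratio of TPM with and without a match, each plus 0.1 TPM, over genes with a mean sum of at least 1 TPM, and by an exact permutation test.

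All 9 members were named in every comparison. From the other lists the text gives counts and at most 2 rises and 2 falls, the largest among genes called in the cytoplasm of the AGO1/2/3 knockout, and for each member the gene most alike over 30 libraries. The members and lists were chosen with earlier results of these data known.

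Per the labels, each line has a nuclear and a cytoplasmic library of each passage, and whether both came from 1 harvest is not given in the sources used here. Deviations from the group means correlated between fractions at 0.156, 0.148 and 0.402 for the same passage of wild type and at −0.027 to 0.212 for that of the knockout lines. Fits between fractions were made without a block, and values with the passage as replicate block stand beside each result they change.

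Alternatives were DESeq2 1.42.0, RLE size factors, other filters on low counts, fits of only 2 groups, limma with a pseudocount of 1 or 0.1 TPM on the log2 scale, length-scaled counts, a replicate block and each library left out in turn. Fold changes on the log2(TPM + 1) scale understate changes of low genes. Simulated counts had 200 genes changed by 1 on the log2 scale. edgeR recovered 90% of them in the contrast of cytoplasmic AGO1/2/3 knockout with wild type (17258 genes). It recovered 94% in the nuclear one (18367 genes) and 84% in the difference between fractions (19654 genes). The 200 genes were drawn from those with a mean count above 50, and no other gene was changed. Recovery for lower genes, or with as many changed genes as were called in these data, was not simulated. The limma test of shares recovered 93% of 200 changed by 2 in the cytoplasmic AGO1/2/3 contrast (1421 genes).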

Additional observations from a re-analysis of the deposited data

Results flagged for a closer look

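The change of RECK in the AGO1/2 knockout differed between nucleus and cytoplasm by −0.79 on the log2 scale (adjusted p = 0.000204624), and that in the AGO1/2/3 knockout by −0.63 (adjusted p = 0.00370468), which drew attention because the difference between the fractions itself passed edgeR's quasi-likelihood test. For TIMP3 the same difference was 0.75 (adjusted p = 0.0329974) and 0.90 (adjusted p = 0.0181818). For RASA1 it was 0.36 in the AGO1/2 knockout (adjusted p = 0.0153593). With the passage as replicate block RECK, TIMP3 and RASA1 kept these calls, and RHOB and PDCD4 in both knockouts and TPM1 in the AGO1/2 knockout passed too. The fractions' marker RNAs moved in the same libraries, and their part in these differences was not tested.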

How the results depend on the processing

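Depth limited the low members most: TIMP3 rested on 7 to 30 reads a library in the AGO2 knockout, and wild-type libraries were the shallowest. Of the values of single members under another setting with all libraries, 677 kept their direction and their side of the threshold, 36 lost the call, 70 gained one and 61 changed sign, and the cause of those changes was not tested. Sign changes by edgeR were all of members not called, and those of called members came with TPM.

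With no filter on low counts the log2 changes that turned were TPM1 (0.017) in the cytoplasm of the AGO1 knockout, PDCD4 (0.019) in that of the AGO1/2/3 knockout, RASA1 and TPM1 (0.020 each) in the nucleus of the AGO1 knockout, PDCD4 (0.044) and RASA1 (0.0049) in that of the AGO2 knockout and RASA1 (0.056) in that of the AGO1/2/3 knockout. Between nucleus and cytoplasm RASA1 turned to −0.11 in wild type, −0.095 in the AGO1 and −0.052 in the AGO2 knockout, SPRY2 to −0.10 and −0.076 in these knockouts and PDCD4 to 0.017 in the AGO1/2/3 knockout. The difference in effect between fractions turned to 0.088 for SPRY2 and 0.091 for TPM1 in the AGO1/2/3 knockout, 5 members were called for it in the AGO1/2 knockout, and 2 in the nuclear AGO2 knockout. A mean count of at least 50 gave SPRY1 −0.0082 in the nuclear AGO1 knockout.

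Length-scaled counts gave TPM1 0.0024 in the cytoplasmic AGO1 knockout, RASA1 0.0017 in the nuclear AGO1 knockout, RASA1 0.055 and SPRY2 0.021 with 2 members called in the nuclear AGO2 knockout, and RASA1 0.063 in the nuclear AGO1/2/3 knockout. RLE size factors gave PDCD4 0.00052 in the nuclear AGO2 knockout, SPRY1 0.069 between the fractions of wild type, PDCD4 0.079 between those of the AGO1/2/3 knockout, BTG2 −0.00021 in the difference of effects for that knockout, and 1 member called for the AGO1/2 knockout. With only 2 groups in the fit, 832 and 1348 genes were called in the cytoplasm of the AGO1 and AGO2 knockouts, and 3747 genes and 2 members in the nuclear AGO1 knockout, where RASA1 was 0.0024 and TPM1 0.0019.

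With limma on log2(TPM + 1), 7 members were called in the cytoplasmic AGO1 knockout, and 5090 genes and 6 members in the AGO2 knockout. BTG2 turned to −0.039 in the cytoplasmic AGO2 knockout, TPM1 to −0.11 in the AGO1/2 knockout, SPRY1 to −0.071 in the nuclear AGO1 knockout, and RECK to −0.053 and −0.12 in the nuclear AGO1/2 and AGO1/2/3 knockouts. With 0.1 TPM as pseudocount these were −0.043, −0.12, −0.097, −0.074 and −0.17, with 5 members called in the cytoplasmic AGO1 knockout and 4985 genes and 6 members in the AGO2 knockout. Between the fractions, log2(TPM + 1) gave in wild type PDCD4 0.059, SPRY1 0.37 and SPRY2 0.21, in the AGO1 knockout PDCD4 0.079, and in the AGO2 knockout BTG2 0.057, PDCD4 0.55 and RECK 0.043. In the AGO1/2 knockout it gave BTG2 0.39, RECK 0.21, RHOB 0.44, SPRY2 0.37, TIMP3 0.22 and TPM1 0.012, and in the AGO1/2/3 knockout PDCD4 0.65, RECK 0.11, RHOB 0.0032, SPRY2 0.23 and TIMP3 0.17. The difference in effect was 0.17 for SPRY2 and TPM1 in the AGO1/2 knockout, with 11017 genes and 6 members called, and 0.021 for SPRY2 and 0.0066 for TPM1 in the AGO1/2/3 knockout.

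For the share of transcripts with a match, a pseudocount of 1 TPM called 49, 160, 541 and 326 genes in cytoplasm of the knockouts of AGO1 alone, AGO2 alone, both and all 3, against 12, 43, 197 and 92, and 152 against 82 in the nuclear AGO1 knockout. TPM1 turned to 0.066 and 0.046 in the cytoplasmic AGO1 and AGO1/2 knockouts. No minimum TPM called 30, 92 and 148 genes in the cytoplasmic AGO1, AGO2 and AGO1/2/3 knockouts.

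With the passage as replicate block 6 members were called between the fractions of the AGO2 knockout. For the difference in effect the replicate block gave 6 members in the AGO1/2 knockout, and 7011 genes and 4 members in the AGO1/2/3 knockout. Under it RHOB passed with 0.48 and 0.39, PDCD4 with 0.80 and 0.43 and TPM1 with −0.22 in the AGO1/2 knockout. No member lost a call under it.

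Leaving out each library in turn gave the following ranges where a sign changed or a count moved. In the cytoplasmic AGO1 knockout 1219 to 2317 genes were called, with PDCD4 at −0.39 to 0.40, RASA1 at −0.12 to 0.065 and TPM1 at −0.060 to 0.031. In the cytoplasmic AGO2 knockout 1689 to 2770 genes were called, with PDCD4 at −0.48 to 0.27 and RASA1 at −0.15 to 0.030. In the cytoplasmic AGO1/2/3 knockout PDCD4 was −0.24 to 0.51 and TIMP3 −0.20 to 0.0097. In the nuclear AGO1 knockout 2 to 4 members were called, with PDCD4 at −0.33 to 0.37, RASA1 at −0.049 to 0.028, SPRY1 at −0.062 to 0.11, SPRY2 at −0.14 to 0.042 and TPM1 at −0.073 to 0.045. In the nuclear AGO2 knockout 2 to 4 members were called, with PDCD4 at −0.20 to 0.50, RASA1 at −0.053 to 0.023, RHOB at −0.29 to 0.17 and SPRY2 at −0.18 to 0.082. PDCD4 was −0.52 to 0.32 in the nuclear AGO1/2 knockout and RASA1 −0.026 to 0.051 in the nuclear AGO1/2/3 knockout.

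Between the fractions the ranges were −0.91 to 0.043 for PDCD4, −0.059 to 0.11 for RASA1 and −0.084 to 0.037 for SPRY1 in wild type, −0.0099 to 0.097 for RASA1 in the AGO1 knockout, −0.083 to 0.13 for SPRY2 in the AGO2 knockout, −0.094 to 0.49 for SPRY1 in the AGO1/2 knockout and −0.17 to 0.080 for PDCD4 in the AGO1/2/3 knockout. For the difference in effect 1 to 5 members were called in the AGO1/2 knockout, with SPRY1 at −0.065 to 0.53, and 1 to 3 in the AGO1/2/3 knockout, with BTG2 at −0.051 to 0.11, PDCD4 at −0.051 to 0.91, RASA1 at −0.049 to 0.12 and SPRY2 at −0.16 to 0.049. For the share of transcripts with a match the calls in cytoplasm were 4 to 15 genes in the AGO1 knockout (TPM1 −0.56 to 0.25), 16 to 40 in the AGO2, 115 to 194 in the AGO1/2 (TPM1 −0.55 to 0.27) and 56 to 94 in the AGO1/2/3 knockout (TPM1 −0.31 to 0.50). The nuclear AGO1 and AGO2 knockouts had 34 to 70 and 158 to 205 genes called, with TPM1 at −0.082 to 0.33 and −0.15 to 0.26.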
